A study of Mus musculus with 34 samples.

Results

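The Slc25 genes encode the mitochondrial carrier family. Its members on the array were taken as every probe whose platform annotation gives the symbol Slc25a followed by a number, a rule that used no measured value. This gave 76 of the 45281 probes and 46 of the 19057 annotated genes, and all 76 probes passed the filter on dim probes. Gene expression had been profiled on Illumina mouse BeadChips in liver tissue from male C3H/HeNCrl mice, with 1 array per mouse and 34 arrays in 6 groups. The groups with hepatocellular carcinoma (HCC) were 7 high-LET HCC (1 mouse at 0.1 Gy, 3 at 0.2 Gy, 1 at 0.4 Gy and 2 at 1 Gy), 3 low-LET HCC (2 mice at 2 Gy and 1 at 3 Gy) and 4 spontaneous HCC from unirradiated mice. The groups of non-tumor tissue were 10 high-LET non-HCC livers (all at 1 Gy), 4 low-LET non-HCC livers (1 mouse each at 3, 5, 6 and 7 Gy) and 6 sham livers from unirradiated mice. High-LET (high linear energy transfer) radiation was given as accelerated iron or silicon ions and low-LET radiation as γ-rays. The mice were irradiated when young and killed when moribund or at the end of the carcinogenesis study. C3H males develop liver tumors without radiation, and doses differ between the HCC and the liver groups of the same radiation, so radiation dose and pathology cannot be fully told apart in the irradiated groups. Doses are those of the labels, and most of those given for the low-LET livers lie above the γ-ray range in the methods. The high-LET livers are described as coming from iron-ion mice, whereas the HCC followed either ion, and the labels do not name the ion of a mouse, so ion and pathology cannot be fully told apart either.

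Mitochondrial carriers are small proteins of the inner mitochondrial membrane that exchange metabolites between the cytosol and the matrix. Each moves a narrow class of substrates, such as nucleotides and phosphate, di- and tricarboxylates, amino acids, cofactors or iron. In the liver they serve the urea cycle, fatty acid oxidation, gluconeogenesis and heme synthesis, which are split between the 2 compartments.

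The 5 carriers *Slc25a42*, *Slc25a15*, *Slc25a16*, *Slc25a23* and *Slc25a45* were lower in all 3 kinds of HCC, and their promoters are shown here as the sequences of the genes on which the results turn. Each sequence runs 5′ to 3′ on the gene's own strand from 250 bases before to 50 bases after the RefSeq start (build GRCm38.p6), and where RefSeq lists several starts the one listed first was used. Capitals mark matches, on either strand, to the motifs GGGCGG (GC box), CCAAT (the box named after it) and AGGTCA (nuclear receptor half-site). No 2 matches shared a base.
Slc25a42 (chr8:70212232-70212531, minus strand): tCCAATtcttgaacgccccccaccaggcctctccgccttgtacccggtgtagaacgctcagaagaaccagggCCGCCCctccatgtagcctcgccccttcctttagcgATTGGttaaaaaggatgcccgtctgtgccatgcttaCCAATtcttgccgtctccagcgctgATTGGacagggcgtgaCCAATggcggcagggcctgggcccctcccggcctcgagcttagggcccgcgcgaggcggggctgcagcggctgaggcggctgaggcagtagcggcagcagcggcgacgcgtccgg
Slc25a15 (chr8:22398572-22398871, minus strand): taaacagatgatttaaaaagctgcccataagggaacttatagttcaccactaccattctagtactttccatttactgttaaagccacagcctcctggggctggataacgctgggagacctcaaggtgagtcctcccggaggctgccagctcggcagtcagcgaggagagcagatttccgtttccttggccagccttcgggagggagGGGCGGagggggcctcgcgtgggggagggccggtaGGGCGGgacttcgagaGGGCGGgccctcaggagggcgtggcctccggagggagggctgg
Slc25a16 (chr10:62920383-62920682, plus strand): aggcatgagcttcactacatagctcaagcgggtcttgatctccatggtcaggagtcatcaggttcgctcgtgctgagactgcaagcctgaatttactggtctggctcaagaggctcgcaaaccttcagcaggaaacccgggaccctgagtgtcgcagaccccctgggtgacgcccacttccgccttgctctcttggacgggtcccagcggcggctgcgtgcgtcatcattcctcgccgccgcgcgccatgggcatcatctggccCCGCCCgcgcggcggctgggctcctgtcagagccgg
Slc25a23 (chr17:57059814-57060113, minus strand): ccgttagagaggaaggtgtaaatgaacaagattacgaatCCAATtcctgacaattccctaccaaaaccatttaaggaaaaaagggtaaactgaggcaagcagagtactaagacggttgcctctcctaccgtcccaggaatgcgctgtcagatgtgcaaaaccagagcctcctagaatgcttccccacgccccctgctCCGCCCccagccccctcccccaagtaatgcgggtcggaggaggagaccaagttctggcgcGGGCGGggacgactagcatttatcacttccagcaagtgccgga
Slc25a45 (chr19:5877572-5877871, plus strand): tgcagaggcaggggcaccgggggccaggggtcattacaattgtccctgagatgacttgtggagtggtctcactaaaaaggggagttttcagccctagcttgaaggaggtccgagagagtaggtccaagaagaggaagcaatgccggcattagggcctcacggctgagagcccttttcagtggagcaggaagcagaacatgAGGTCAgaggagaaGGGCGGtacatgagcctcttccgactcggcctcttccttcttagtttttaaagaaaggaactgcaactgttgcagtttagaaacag

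All of these 5 promoters held GGGCGG (1 match in *Slc25a42*, *Slc25a16* and *Slc25a45*, 2 in *Slc25a23* and 3 in *Slc25a15*). CCAAT had 5 matches in *Slc25a42* and 1 in *Slc25a23*, and AGGTCA had 1 match in *Slc25a45*. CACGTG (E-box) and TTGCNNAA (C/EBP-type) had no match in them. Over the 46 promoters found for 36 of the carrier genes, 82.6% held GGGCGG, 47.8% CCAAT, 17.4% CACGTG, 8.70% AGGTCA and 6.52% TTGCNNAA. Over all 32851 RefSeq promoters of this length the shares were 35.7%, 37.4%, 7.15%, 16.3% and 10.8% in the same order of motifs. These matches describe the letters only.

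Each gene is given by its brightest probe on average over the arrays. Values are log2 signals after background correction and quantile normalization, and a gene was called at a limma adjusted p under 0.1 (Benjamini-Hochberg over all 45219 probes tested) with a fold change above 1.3. Of the 46 carriers, 35 had a mean signal above the background limit, which averaged 6.04 on the log2 scale. The other 11 (*Slc25a2*, *Slc25a4*, *Slc25a18*, *Slc25a21*, *Slc25a27*, *Slc25a31*, *Slc25a40*, *Slc25a41*, *Slc25a43*, *Slc25a46* and *Slc25a54*) had mean signals between 5.79 and 6.04. The labelled tissue held hepatocyte RNA in every group: 7 of 8 hepatocyte markers were matched and each was above background, with summed signals of 68190 to 86640 in high-LET HCC, 78650 to 83230 in low-LET HCC and 71470 to 75780 in spontaneous HCC, against 72020 to 84510 in high-LET livers, 76020 to 81640 in low-LET livers and 75200 to 85350 in sham livers. In bulk tissue, fewer cells of a type and less RNA per cell cannot be told apart.

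The arrays themselves bear on the high-LET HCC group. On the first principal component over all probes, high-LET HCC replicates 5, 6 and 7 (0.2, 1 and 1 Gy) lay between -13.2 and -7.15, whereas the other HCC lay between 31.3 and 68.4 and the livers between -29.7 and -20.8. Some of the high-LET results are therefore also given without these 3 HCC, a choice made after seeing the data. The arrays came from 8 BeadChips, each of which held more than 1 group. BeadChip 4 held only HCC (high-LET replicates 3 and 7 and low-LET replicate 3), and BeadChip 5 held only non-HCC livers. On these, BeadChip and pathology cannot be told apart.

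Within each kind of radiation, the first question was which carriers differed between HCC and non-HCC liver. In high-LET HCC, 8 of 46 carriers (17.4%) were called against high-LET non-HCC liver, beside 11.7% of all genes. Of these, 7 were lower (6.08% of all genes) and 1 was higher (5.57% of all genes). Low-LET HCC also had 8 carriers called against low-LET non-HCC liver, 6 lower and 2 higher, beside 9.86% of all genes (4.95% lower and 4.91% higher). Spontaneous HCC had 8 called against sham liver, 7 lower and 1 higher, beside 14.1% of all genes (6.83% lower and 7.28% higher). Over the whole family the median log2 fold change was close to that of all genes in the 3 comparisons, at -0.014 (high-LET HCC), -0.061 (low-LET HCC) and -0.064 (spontaneous HCC) for the carriers, beside -0.011, -0.0090 and -0.0033 for all genes.

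Calls are made more often among bright genes. Among genes whose mean signal was above background, 22.9% of the 35 carriers were called in each comparison, beside 17.8% (high-LET HCC), 15% (low-LET HCC) and 21.5% (spontaneous HCC) of all such genes, a restriction added after seeing the data. Of the carriers, 5 (10.9%) were lower in all 3 comparisons, as were 2.55% of all genes, and 1 carrier (2.17%) was higher in all 3, as were 2.34% of all genes, which makes 4.89% of all genes called the same way throughout. In total 11 carriers (23.9%) were called in at least 1 of the 3 comparisons, beside 20.3% of all genes, and 35 were called in none. These 3 comparisons share no mouse.

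On BeadChips that held both groups, the carriers called in the 3 comparisons had the same direction as in the full fit on every such BeadChip, except *Slc25a20* in high-LET HCC (2 of 3 BeadChips). These arrays are part of the full fit, and each BeadChip set only 1 or 2 HCC against 1 or 2 livers. For high-LET HCC each set 1 HCC (replicate 1, 2 or 4) against 2 livers. High-LET HCC replicates 5, 6 and 7, which lay nearest the livers, were on none of them. The 3 within-BeadChip differences of high-LET HCC ran from -1.58 to -1.31 for *Slc25a42*, from -1.60 to -0.67 for *Slc25a23* and from 0.02 to 0.89 for *Slc25a37*. Low-LET HCC shared only 1 BeadChip with low-LET livers, where *Slc25a42* had -0.47 and *Slc25a23* -0.94. Spontaneous HCC shared 2 with sham livers, where *Slc25a42* had -1.40 and -1.20 and *Slc25a23* -1.07 and -1.02. With BeadChip as a fixed block, *Slc25a23* was the 1 carrier called in low-LET HCC against low-LET liver, and the 7 others lost the call (limma adjusted p = 0.130 to 0.502). The same block ended the high-LET calls of *Slc25a15*, *Slc25a20* and *Slc25a37* and the spontaneous call of *Slc25a37*. When arrays were scaled to 1 median instead of by quantiles, the scaling left *Slc25a15* as the 1 carrier called in low-LET HCC.

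**Figure D1:**
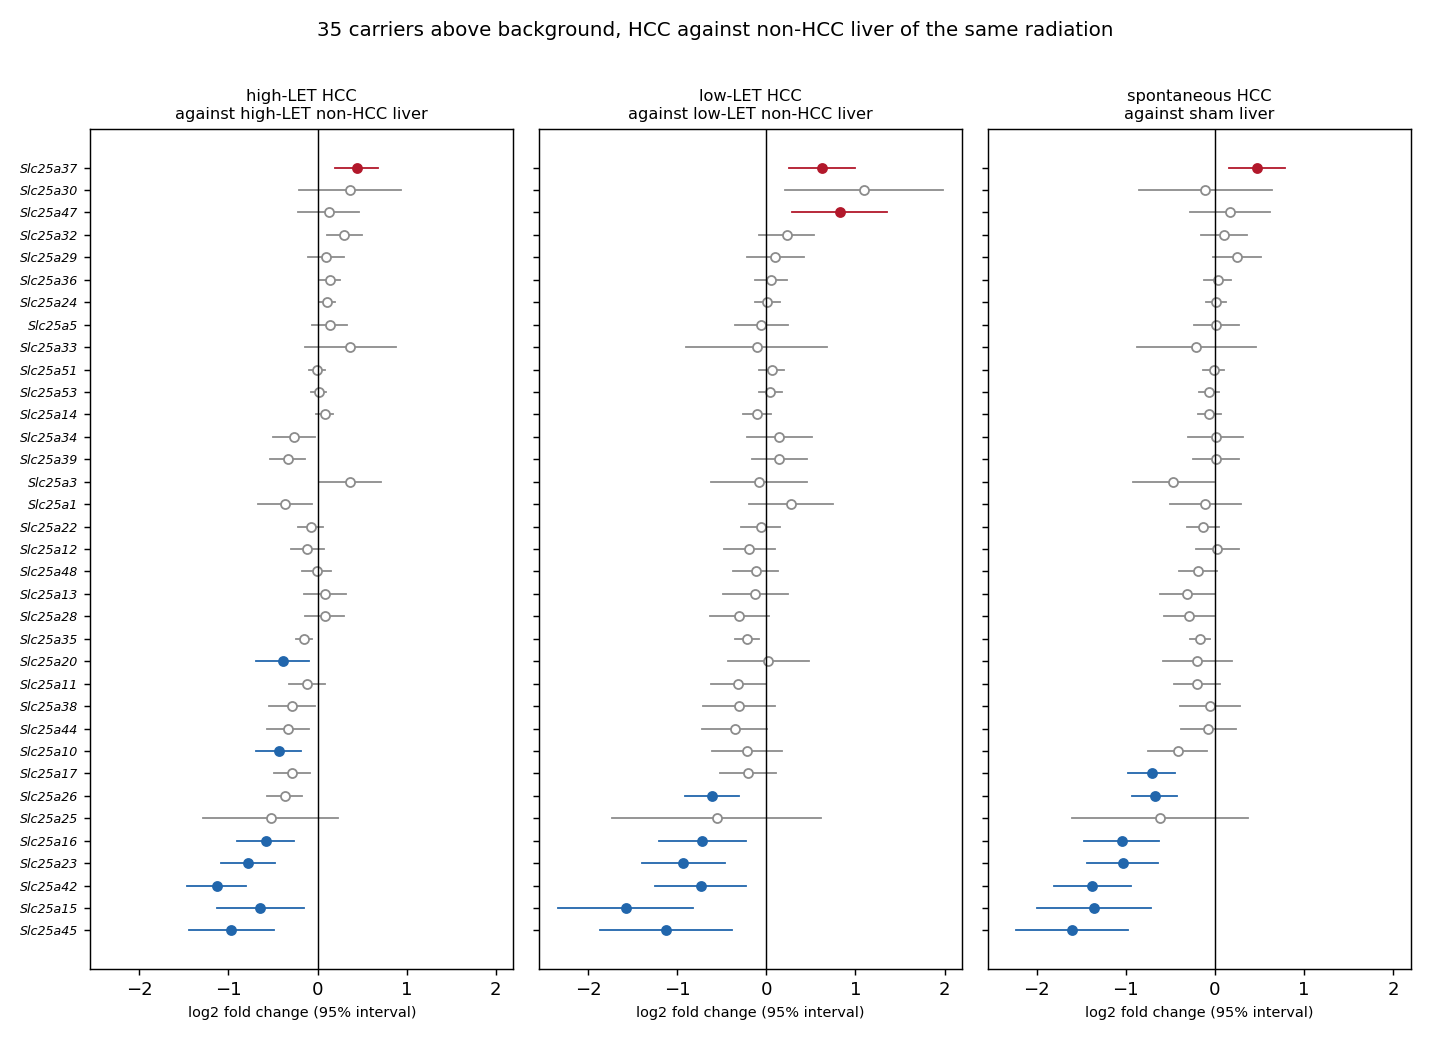
Log2 fold change (x axis, with 95% interval from limma) of the 35 carriers above background (rows) in high-LET HCC against high-LET non-HCC liver, low-LET HCC against low-LET non-HCC liver and spontaneous HCC against sham liver (panels). Filled red points were called higher and filled blue points lower; *Slc25a37* at the top and *Slc25a16*, *Slc25a23*, *Slc25a42*, *Slc25a15* and *Slc25a45* at the bottom are filled in all 3 panels, and most other carriers lie near 0.

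Of 8 matched carriers of cofactors, acylcarnitine and glutathione, 3 were lower and 0 higher in each comparison, where 6.08% (high-LET HCC), 4.95% (low-LET HCC) and 6.83% (spontaneous HCC) of all genes were lower. The 3 low-LET calls, of *Slc25a42* (adjusted p = 0.249), *Slc25a16* (0.502) and *Slc25a26* (0.195), were lost with BeadChip as a fixed block. *Slc25a42*, which brings coenzyme A into the matrix, had log2 signals of 7.50 to 8.78 (median 8.0) in high-LET HCC, against 8.88 to 9.45 (median 9.29) in high-LET livers. In low-LET HCC its signals were 8.43, 8.05 and 8.26, against 9.11, 8.93, 8.86 and 9.02 in low-LET livers. In spontaneous HCC they were 7.91, 8.46, 7.75 and 7.55, against 9.0 to 9.52 (median 9.30) in sham livers. Every HCC lay below every liver of its own comparison. *Slc25a42* fell by 1.13 on the log2 scale in high-LET HCC (SE 0.16, limma adjusted p = 1.67e-05), by 0.73 in low-LET HCC (SE 0.25, adjusted p = 0.0832) and by 1.37 in spontaneous HCC (SE 0.21, adjusted p = 3.51e-05). The low-LET call was lost when any of low-LET liver replicates 1 to 4 (adjusted p = 0.116 to 0.169) or HCC replicate 2 (0.257) or 3 (0.193) was left out. Its 3 other probes lay near background, with means of 5.93 to 6.24, and were called in none of the 3 comparisons.

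*Slc25a16*, a carrier linked to coenzyme A transport, gave 8.35 to 9.95 (median 9.03) in high-LET HCC, against 9.24 to 9.95 (median 9.69) in high-LET livers, so these groups overlapped. Low-LET HCC had 8.98, 8.94 and 8.57, against 9.61, 9.34, 9.41 and 9.82 in low-LET livers. Spontaneous HCC had 8.63, 8.99, 8.67 and 8.56, against 9.60 to 9.93 (median 9.76) in sham livers. The low-LET and spontaneous HCC each lay below all of their livers. It fell by 0.58 in high-LET HCC (SE 0.16, limma adjusted p = 0.0115), by 0.72 in low-LET HCC (SE 0.24, adjusted p = 0.0809) and by 1.05 in spontaneous HCC (SE 0.20, adjusted p = 0.000624). As with *Slc25a42*, the low-LET call was sensitive to single mice. It left the threshold without low-LET liver replicate 1 (0.151), 3 (0.109) or 4 (0.214) or HCC replicate 2 (0.121) or 3 (0.342). The high-LET call was lost with array weights (-0.33, limma adjusted p = 0.169) and with scaling to a common median (0.189).

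The 3 high-LET HCC that lay nearest the livers on the first principal component had the 3 highest signals of their group for both coenzyme A carriers, 8.51, 8.76 and 8.78 for *Slc25a42* and 9.54, 9.48 and 9.95 for *Slc25a16*. Without them the change in high-LET HCC was -1.58 for *Slc25a42* and -1.03 for *Slc25a16*. *Slc25a26*, the S-adenosylmethionine carrier, fell by 0.61 in low-LET HCC (SE 0.15, limma adjusted p = 0.0104) and by 0.68 in spontaneous HCC (SE 0.13, adjusted p = 0.000356), with no overlap in either. Its signals were 7.38, 6.99 and 7.06 in low-LET HCC, against 7.68 to 7.86 in low-LET livers, and 6.93 to 7.17 in spontaneous HCC, against 7.63 to 7.76 in sham livers. In high-LET HCC it averaged 7.32 ± 0.35, against 7.69 ± 0.16 in high-LET livers (SD, n = 7 and 10). That difference of -0.37 (adjusted p = 0.00937) was just under the fold threshold, and it was -0.57 without the 3 HCC.

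*Slc25a20*, which exchanges acylcarnitines for carnitine in fatty acid oxidation, was called lower in the high-LET comparison, with 10.06 to 11.63 (median 11.25) in high-LET HCC, against 11.28 to 11.85 (median 11.47) in high-LET livers. The change was -0.39 (SE 0.14, limma adjusted p = 0.0789), the groups overlapped, and the call was lost without HCC replicate 2 (0.132), 3 (0.193) or 4 (0.259) and with BeadChip as a fixed block (0.160). Over 13 other settings of processing and samples, the high-LET change of *Slc25a20* ran from -0.63 to -0.065. In low-LET and spontaneous HCC its changes were 0.02 and -0.20, and the difference between these and the high-LET change did not pass the interaction test. Its 2 other probes were called nowhere among the 3 comparisons. *Slc25a39*, a glutathione carrier, and *Slc25a32*, a folate carrier, passed the p threshold but not the fold threshold in high-LET HCC (-0.34, adjusted p = 0.0197, and 0.30, adjusted p = 0.0407).

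Of the 9 amino acid carriers, *Slc25a15* alone was called, lower in all 3 comparisons. It exchanges ornithine for citrulline across the inner membrane as a step of the urea cycle. Its signals were 9.32 to 11.34 (median 10.73) in high-LET HCC, against 11.06 to 11.70 (median 11.32) in high-LET livers, with overlap. Low-LET HCC had 10.77, 10.64 and 8.51, against 11.61, 11.67, 11.58 and 11.36 in low-LET livers. Spontaneous HCC had 10.25, 9.62, 9.98 and 10.27, against 11.14 to 11.54 (median 11.45) in sham livers, and in both of these comparisons every HCC was below every liver. The gene fell by 0.64 in high-LET HCC (SE 0.24, limma adjusted p = 0.0806), by 1.58 in low-LET HCC (SE 0.37, adjusted p = 0.00773) and by 1.36 in spontaneous HCC (SE 0.31, adjusted p = 0.00343).

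Single mice decided part of this result. The low-LET change of *Slc25a15* was -0.84 (adjusted p = 0.173) without HCC replicate 3. With BeadChip as a fixed block it was -0.46 (adjusted p = 0.312) in high-LET HCC and -1.13 (0.130) in low-LET HCC, neither called. Its high-LET call was lost without HCC replicate 1 (0.160), 2 (0.110), 3 (-0.42, limma adjusted p = 0.273) or 4 (0.110). Replicate 3 of both the high-LET and the low-LET HCC was on the BeadChip that held only HCC. Mouse and BeadChip therefore cannot be told apart for these 2 leave-outs. Without the 3 HCC nearest the livers, whose signals were 11.27, 11.17 and 11.34, the high-LET change was -1.08 (adjusted p = 0.00340). A second *Slc25a15* probe was lower in low-LET HCC (-1.23, adjusted p = 0.0188) and spontaneous HCC (-1.16, adjusted p = 0.00448), and its change of -0.41 in high-LET HCC was not called.

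The other amino acid carriers showed small differences. The aspartate-glutamate carrier *Slc25a12* had log2 fold changes of -0.12 (high-LET HCC), -0.19 (low-LET HCC) and 0.03 (spontaneous HCC), and its paralog *Slc25a13* of 0.09, -0.12 and -0.31, with no call. The 95% interval of the *Slc25a13* change in spontaneous HCC ran from -0.61 to 0.00, so a fall of moderate size is within it. The glutamate carrier *Slc25a22* had -0.08, -0.06 and -0.13. *Slc25a2*, the second ornithine carrier, was above background on 4 of 34 arrays and *Slc25a18*, the second glutamate carrier, on 1, so no fold change is given for them.

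Among the 11 carriers of nucleotides and phosphate, *Slc25a23* was lower in all 3 comparisons. It is a calcium-regulated carrier that exchanges ATP-Mg for phosphate. Signals were 7.56 to 8.98 (median 8.66) in high-LET HCC, against 9.06 to 9.38 (median 9.18) in high-LET livers. Low-LET HCC had 8.40, 8.20 and 8.37, against 9.22, 9.30, 9.38 and 9.12 in low-LET livers. Spontaneous HCC had 8.15, 8.61, 8.21 and 7.96, against 9.16 to 9.48 (median 9.24) in sham livers. Like *Slc25a42*, it did not overlap between HCC and liver in any of the 3. It fell by 0.78 in high-LET HCC (SE 0.15, limma adjusted p = 0.000585), by 0.93 in low-LET HCC (SE 0.23, adjusted p = 0.0115) and by 1.03 in spontaneous HCC (SE 0.19, adjusted p = 0.000434). It was called in all 3 comparisons whichever single mouse was left out (the high-LET livers were not left out in turn), and its low-LET call was lost with scaling to a common median (-0.79, adjusted p = 0.370). Replicates 5, 6 and 7 were again the highest of the high-LET HCC (8.81, 8.98 and 8.95), and the change was -1.15 without them.

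Its paralogs *Slc25a24* and *Slc25a25*, which carry the same substrates, were not called. *Slc25a24* averaged 6.47 ± 0.11 in high-LET HCC, against 6.37 ± 0.09 in high-LET livers. *Slc25a25* was spread widely, from 7.99 to 11.01 in high-LET HCC (9.20 ± 1.20), against 8.70 to 10.34 in high-LET livers (9.72 ± 0.53). Its differences of -0.53 (high-LET HCC), -0.56 (low-LET HCC) and -0.61 (spontaneous HCC) did not pass the test (adjusted p = 0.454 to 0.754), and the high-LET difference was 0.16, of opposite sign, without HCC replicates 5, 6 and 7.

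*Slc25a17*, which carries nucleotide cofactors in the peroxisome, was lower in spontaneous HCC, with 8.07 to 8.23 in the 4 HCC, against 8.59 to 9.24 (median 8.83) in sham livers. It fell by 0.71 (SE 0.13, limma adjusted p = 0.000316), and the groups did not overlap. In high-LET HCC its change was -0.29 (adjusted p = 0.0529, under the fold threshold) and in low-LET HCC -0.20. The phosphate carrier *Slc25a3* was called in none of the 3 comparisons by its brightest probe (0.37, -0.08 and -0.47), while a second probe was lower in spontaneous HCC (-0.56, adjusted p = 0.00243).

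The ADP/ATP carriers export ATP from the matrix. *Slc25a5*, the main form in liver, averaged 13.20 ± 0.15 in high-LET HCC, against 13.06 ± 0.13 in high-LET livers, 13.10 ± 0.57 in low-LET HCC, against 13.16 ± 0.11 in low-LET livers, and 13.12 ± 0.19 in spontaneous HCC, against 13.11 ± 0.05 in sham livers (SD). Its 95% intervals were -0.06 to 0.33, -0.36 to 0.24 and -0.24 to 0.27. They rest on 1 spread shared by all groups, whereas the SD in low-LET HCC was 0.57. The low-LET change of *Slc25a5* was -0.058, but 0.27 without low-LET HCC replicate 3, outside its interval, and 0.16 with array weights. *Slc25a4*, the form of heart and muscle, and *Slc25a31*, the form of testis, were above background on 0 arrays. The pyrimidine nucleotide carriers *Slc25a33* and *Slc25a36* were not called, and *Slc25a33* had an SD of 0.97 in high-LET HCC, where replicate 4 (0.4 Gy) stood at 11.64 beside 8.83 to 9.83 in the others.

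**Figure D2:**
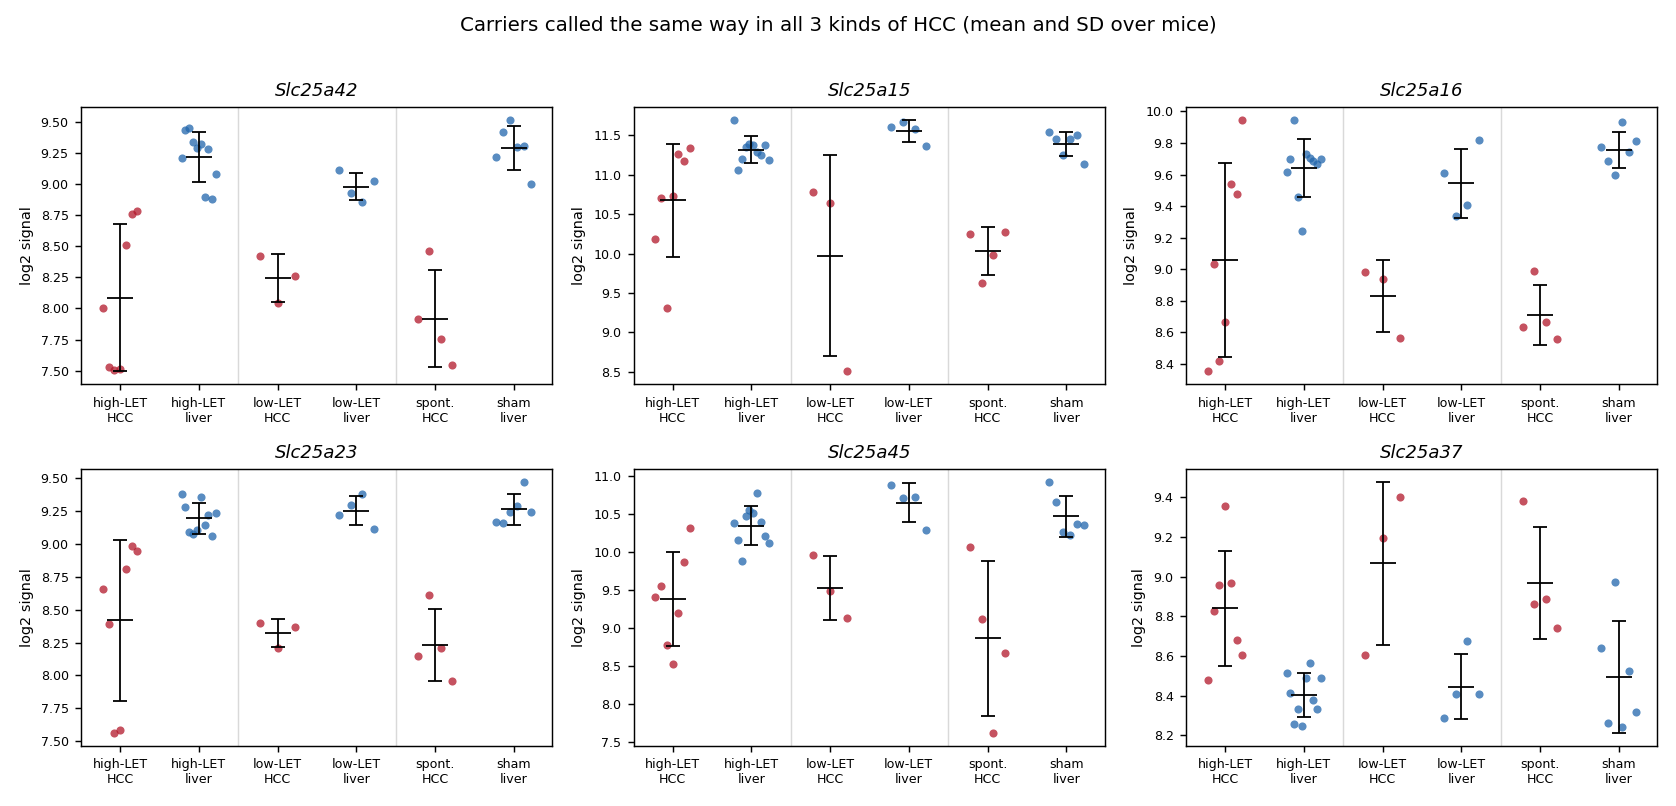
Log2 signal (y axis) of the 6 carriers called the same way in all 3 kinds of HCC, by group (x axis), HCC in red and non-HCC liver in blue; each point is 1 mouse and lines give mean and SD. *Slc25a42* and *Slc25a23* show no overlap between HCC and liver in any pair, and *Slc25a37* overlaps in all 3.

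Of the 4 carriers of di- and tricarboxylates, *Slc25a10*, which exchanges malate or succinate for phosphate, was lower in high-LET HCC. Its signals were 9.13 to 10.40 (median 10.20) in high-LET HCC, against 10.16 to 10.63 (median 10.43) in high-LET livers. The change was -0.44 (SE 0.12, limma adjusted p = 0.0168), with overlap, and was under the fold threshold without HCC replicate 3 (-0.30) or 4 (-0.36). Over 13 other settings of processing and samples it ran from -0.62 to -0.32. Spontaneous HCC had a difference of similar size that was not called (-0.42, adjusted p = 0.108), and low-LET HCC one of -0.22. The citrate carrier *Slc25a1* was called in none of the 3 (-0.37, 0.28 and -0.11).

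The iron carrier *Slc25a37* (mitoferrin-1) was the 1 member called higher in all 3 kinds of HCC. It had 8.48 to 9.36 (median 8.83) in high-LET HCC, against 8.25 to 8.56 (median 8.39) in high-LET livers. Low-LET HCC had 8.61, 9.20 and 9.40, against 8.29, 8.41, 8.68 and 8.41 in low-LET livers. Spontaneous HCC had 9.38, 8.86, 8.89 and 8.74, against 8.24 to 8.97 (median 8.42) in sham livers, so the groups overlapped in each comparison. It rose by 0.44 in high-LET HCC (SE 0.12, limma adjusted p = 0.0114), by 0.62 in low-LET HCC (SE 0.18, adjusted p = 0.0359) and by 0.48 in spontaneous HCC (SE 0.15, adjusted p = 0.0420). Its calls rested on single mice, since they were lost without high-LET HCC replicate 4 (0.35, under the fold threshold), low-LET HCC replicate 2 (0.56, adjusted p = 0.137) or 3 (0.46, adjusted p = 0.285), or spontaneous HCC replicate 1 (0.34, adjusted p = 0.233). All 3 calls were also lost with BeadChip as a fixed block (adjusted p = 0.144 for high-LET, 0.228 for low-LET and 0.164 for spontaneous HCC) and with scaling to a common median (0.102, 0.163 and 0.328). With the mean of the gene's probes the changes were 0.22, 0.34 and 0.25 in the same order. Each was under the fold threshold, so all 3 calls were lost there too.

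*Slc25a37* is most abundant in red cell precursors, so erythroid markers are given beside it (3 of 5 matched). *Alas2*, the erythroid heme synthesis enzyme, was lower in all 3 kinds of HCC (-1.74 for high-LET, -1.27 for low-LET and -2.47 for spontaneous HCC), *Hba-a1* was called higher in high-LET HCC (0.65) and not in low-LET (0.83) or spontaneous HCC (0.59), and *Slc4a1* was not called. The summed erythroid signal ranged from 10630 to 40950 in high-LET HCC, 23550 to 38430 in low-LET HCC and 22680 to 40510 in spontaneous HCC, against 13000 to 27390 in high-LET livers, 12230 to 26430 in low-LET livers and 16210 to 30610 in sham livers. Their part in the result was not tested. The paralog *Slc25a28* (mitoferrin-2), which serves other tissues, had 0.08, -0.30 and -0.29 with no call, and the high-LET value was -0.017 without HCC replicates 5, 6 and 7.

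Among the 4 uncoupling protein-like carriers, *Slc25a47*, a carrier enriched in liver, was higher in low-LET HCC, with 13.18, 12.72 and 13.08, against 12.42, 11.86, 12.11 and 12.29 in low-LET livers. All 3 HCC lay above the 4 livers, and the gene rose by 0.82 (SE 0.26, limma adjusted p = 0.0572). The call was lost without low-LET HCC replicate 1 (0.154) or 3 (0.188) or low-LET liver replicate 2 (0.165) or 3 (0.120). Changes in high-LET and spontaneous HCC were 0.13 and 0.17. *Slc25a30* had a larger difference in low-LET HCC (1.10, SE 0.43) with an adjusted p of 0.160.

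*Slc25a45*, 1 of the 8 carriers outside these classes, was lower in all 3 kinds of HCC. High-LET HCC had 8.52 to 10.31 (median 9.41), against 9.88 to 10.77 (median 10.38) in high-LET livers. Low-LET HCC had 9.96, 9.48 and 9.12, against 10.88, 10.71, 10.72 and 10.28 in low-LET livers. Spontaneous HCC had 10.06, 9.11, 7.62 and 8.66, against 10.22 to 10.92 (median 10.36) in sham livers. The high-LET groups overlapped and the other pairs did not. It fell by 0.97 in high-LET HCC (SE 0.24, limma adjusted p = 0.00569), by 1.12 in low-LET HCC (SE 0.37, adjusted p = 0.0669) and by 1.60 in spontaneous HCC (SE 0.31, adjusted p = 0.000563). The low-LET call was lost without low-LET liver replicate 1 (0.150), 2 (0.128) or 3 (0.134) or HCC replicate 2 (0.151) or 3 (0.306).

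**Figure D3:**
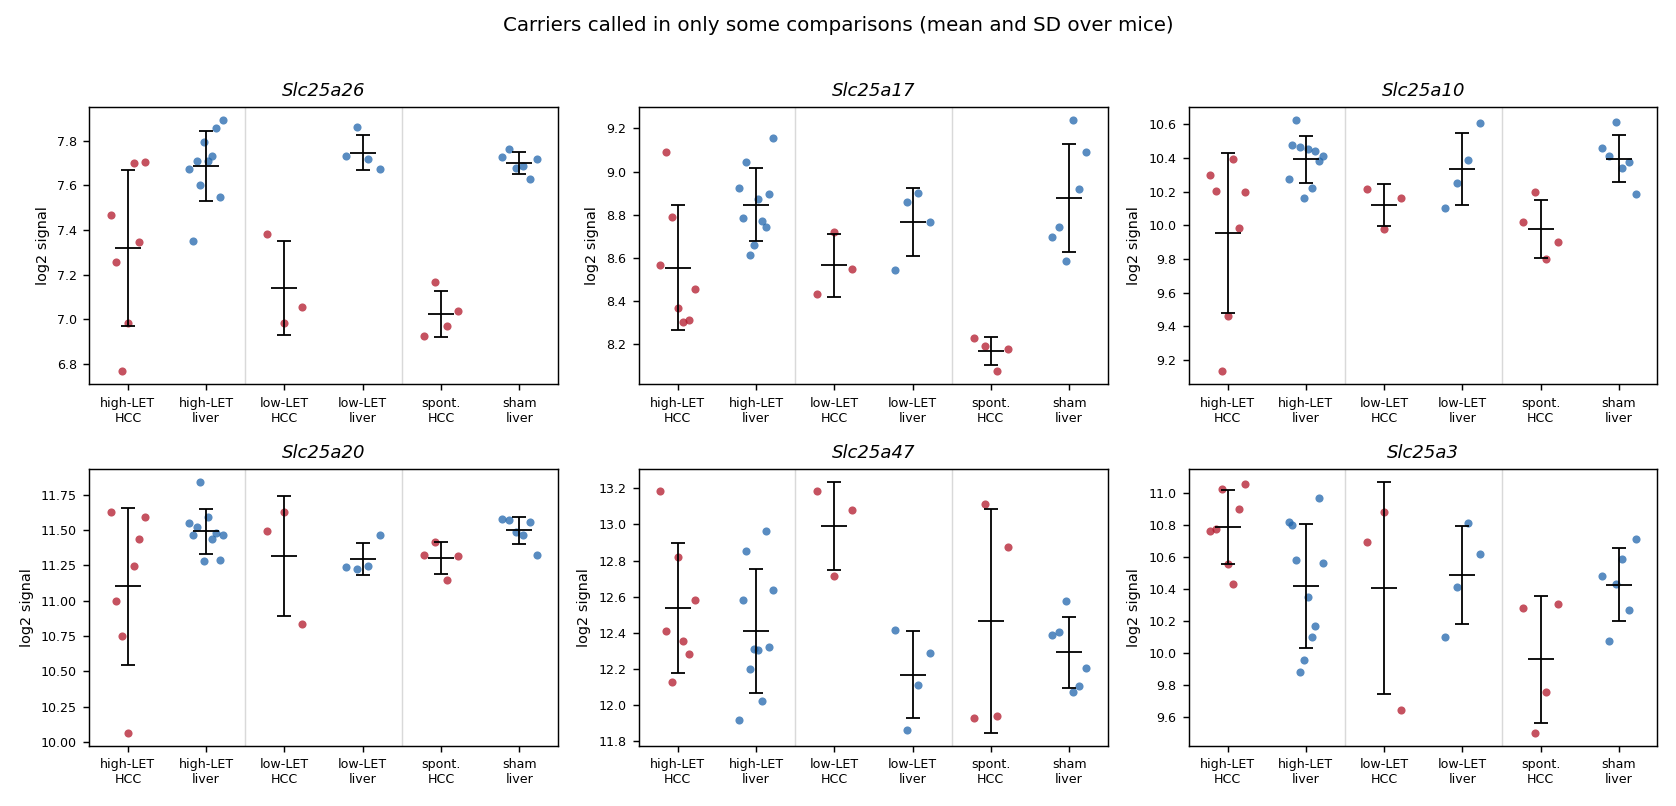
Log2 signal (y axis) by group (x axis) of the 6 carriers called in only some comparisons, HCC in red and non-HCC liver in blue; each point is 1 mouse and lines give mean and SD. *Slc25a26* and *Slc25a17* are separate from sham liver in spontaneous HCC, *Slc25a47* is raised in the 3 low-LET HCC, and *Slc25a3* is higher in all 7 high-LET HCC than in the 4 spontaneous HCC.

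The 35 carriers called in none of the 3 comparisons had changes from -0.53 (*Slc25a25*, the value that turned sign without replicates 5, 6 and 7) to 0.37 (*Slc25a33*) in high-LET HCC. For low-LET HCC they ran from -0.56 (*Slc25a25*) to 1.10 (*Slc25a30*), and in spontaneous HCC from -0.61 (*Slc25a25*) to 0.25 (*Slc25a29*). *Slc25a35* passed the p threshold in all 3 with small changes (-0.16, -0.22 and -0.17). It was not above background on any low-LET HCC array, where it was at least 1.12-fold lower than in low-LET livers, the background limit standing in for its level.

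**Figure D4:**
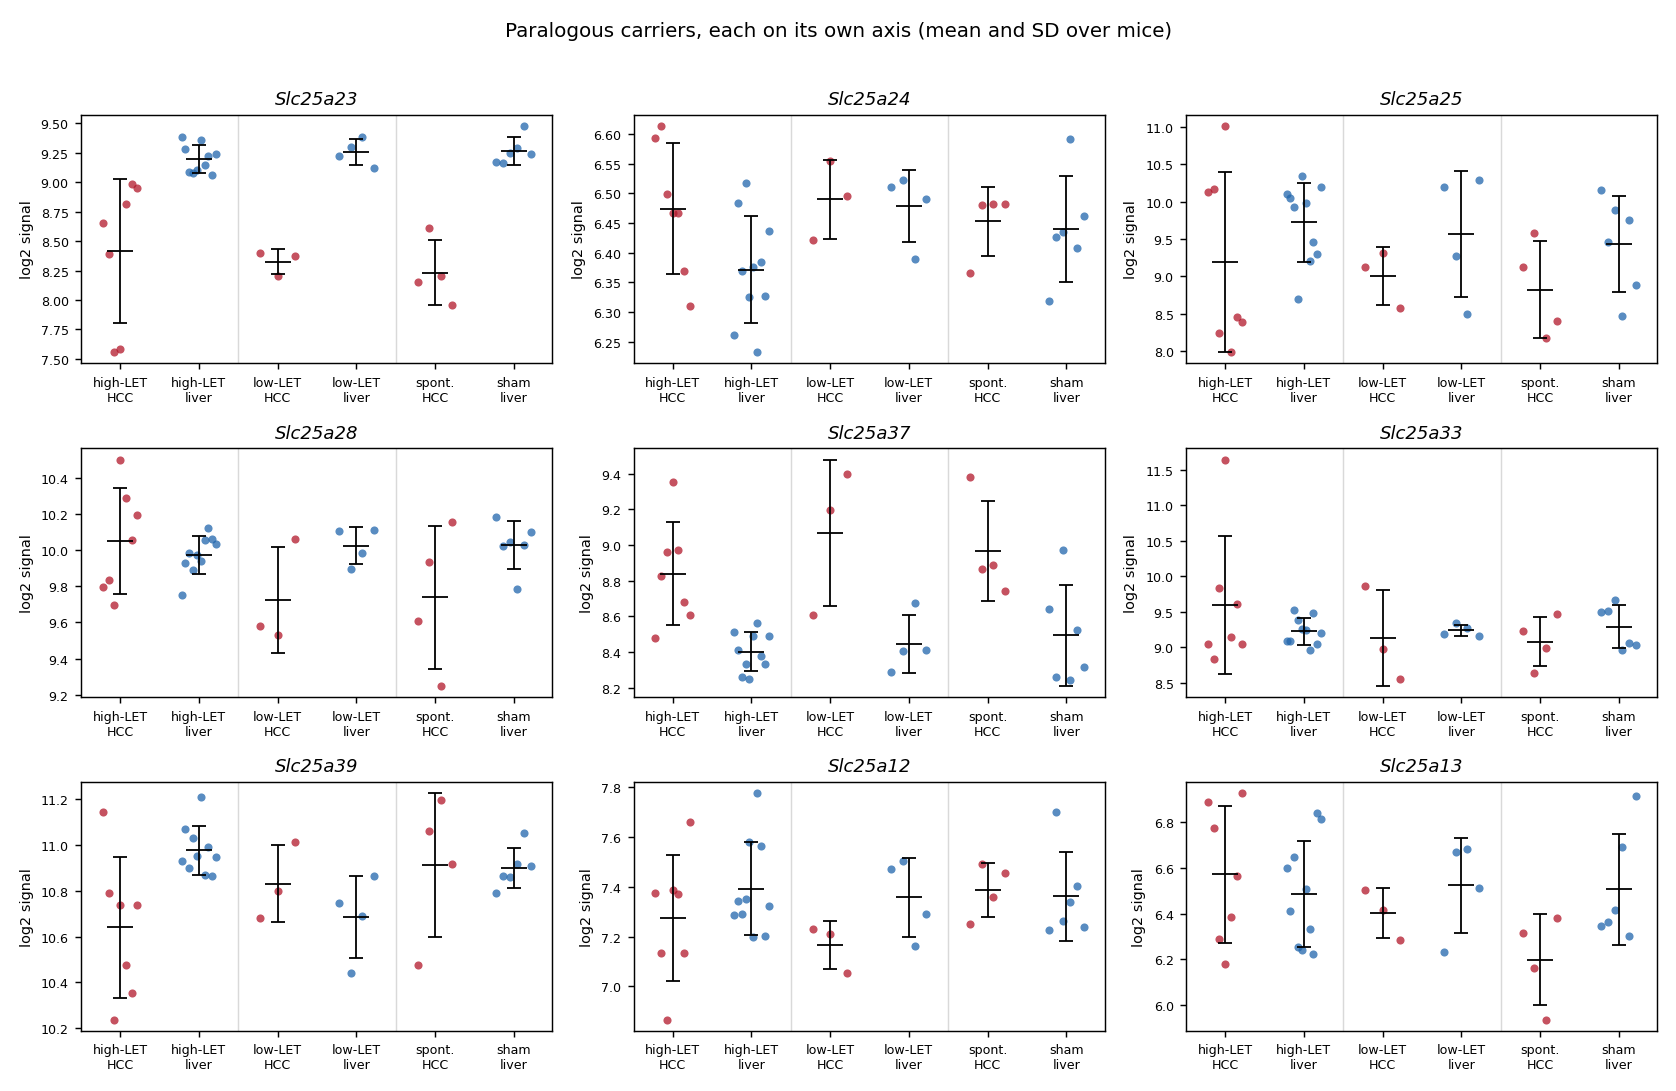
Log2 signal (y axis, scaled to each gene) by group (x axis) for carriers with paralogs that share a substrate class, HCC in red and non-HCC liver in blue; each point is 1 mouse and lines give mean and SD. *Slc25a23* and *Slc25a37* differ between HCC and liver, *Slc25a24*, *Slc25a25*, *Slc25a28*, *Slc25a12* and *Slc25a13* overlap throughout, and 1 high-LET HCC stands at 11.64 for *Slc25a33*.

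HCC was next set against the common baseline of sham liver. The 2 irradiated HCC groups and spontaneous HCC share the 6 sham livers in these comparisons, so their values are only given side by side. High-LET HCC had 6 carriers called, all lower (13%, beside 9.96% of all genes; 5.39% lower and 4.57% higher), and low-LET HCC had 8, 6 lower and 2 higher (17.4%, beside 11.3% of all genes; 5.96% lower and 5.36% higher). *Slc25a42* changed by -1.21 for the high-LET, -1.05 for the low-LET and -1.37 for the spontaneous group. In that order of groups, *Slc25a23* changed by -0.85, -0.94 and -1.03, *Slc25a16* by -0.70, -0.93 and -1.05, and *Slc25a45* by -1.09, -0.94 and -1.60, all called. The low-LET call of *Slc25a45* was lost in 8 of the 9 fits that left out 1 mouse (limma adjusted p up to 0.370) and with BeadChip as a fixed block (0.235). That block also ended the calls of *Slc25a16* in high-LET HCC (0.136) and low-LET HCC (0.124). Scaling to a common median ended both as well (0.191 and 0.183). Using only the groups compared ended the high-LET call of *Slc25a16* (0.147). *Slc25a15* had -0.72 (adjusted p = 0.110, not called), -1.41 and -1.36, and its low-LET call was lost under the block (0.110) and without HCC replicate 3 (-0.68, 0.234).

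For the remaining called members against sham liver, *Slc25a26* changed by -0.38 in high-LET HCC and -0.56 in low-LET HCC, both called. The high-LET value lay just past the fold threshold, and its call was lost in 6 of 13 fits that left out 1 mouse. *Slc25a10* was called in high-LET HCC (-0.44), though the BeadChips that held both groups gave -0.63 to 0.02, with the same direction on 2 of 3, and the call was lost without HCC replicate 3 or 4 or sham replicate 3. *Slc25a37* (0.58) and *Slc25a47* (0.70) were called in low-LET HCC. On the 1 BeadChip shared with sham livers *Slc25a37* had the opposite sign (-0.36) and *Slc25a47* the same (0.60), and leaving out 1 mouse lost the call of *Slc25a37* in 2 and of *Slc25a47* in 5 of 9 fits. With BeadChip as a fixed block the calls of *Slc25a26* (limma adjusted p = 0.232 in high-LET and 0.159 in low-LET HCC), *Slc25a10* (0.370), *Slc25a37* (0.219) and *Slc25a47* (0.231) were all lost. *Slc25a37* in high-LET HCC had 0.35 and was not called (adjusted p = 0.113). Its low-LET call was also lost with the mean of the gene's probes (0.31, under the fold threshold). Without high-LET HCC replicates 5, 6 and 7 the number of carriers called in high-LET HCC was 10 against sham liver and 12 against high-LET liver. The shares of all genes called without these replicates were not computed, so the higher counts are not a result about the carriers.

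Radiation without tumor was examined in the non-HCC livers. By limma with Benjamini-Hochberg adjustment, 0 carriers were called in high-LET livers and 0 in low-LET livers against sham liver, and all genes gave 0% in both. At an unadjusted p under 0.05, 1 carrier (*Slc25a51*, 0.10) passed in high-LET livers and 0 in low-LET livers. The shares of all genes at this unadjusted level were not computed.

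The kinds of HCC were then compared with each other. High-LET HCC differed from spontaneous HCC in 1 carrier (2.17%), which was higher, beside 3.48% of all genes (0.971% higher and 2.5% lower). This was *Slc25a3*, which supplies phosphate for ATP synthesis, with 10.76, 10.77, 11.02, 10.55, 10.43, 10.90 and 11.05 in high-LET HCC, against 10.28, 9.50, 9.76 and 10.30 in spontaneous HCC. All 7 high-LET HCC were above the 4 spontaneous HCC, and the difference was 0.82 (SE 0.22, limma adjusted p = 0.0457). The call was lost without spontaneous HCC replicate 2 (0.173) or 3 (0.188) and without high-LET HCC replicates 5, 6 and 7 (0.120), and a second probe gave 0.35 (adjusted p = 0.129). On the 2 BeadChips that held both groups the differences were 0.15 and 0.25, and with BeadChip as a fixed block the difference was 0.44 (adjusted p = 0.376). A secondary probe of *Slc25a11*, the oxoglutarate carrier, was also called (0.40, adjusted p = 0.0961), while its brightest probe was not.

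*Slc25a17* was higher in every high-LET HCC (8.30 to 9.09) and in every low-LET HCC (8.43, 8.55 and 8.72) than in spontaneous HCC (8.07 to 8.23), with differences of 0.39 and 0.40 that did not pass the test (limma adjusted p = 0.114 and 0.895). Low-LET HCC against spontaneous HCC gave 0 carriers called (0.0105% of all genes) and 1 at an unadjusted p under 0.05. High-LET HCC against low-LET HCC gave 0 called (0.877% of all genes) and 5 at an unadjusted p under 0.05. Of these 5, *Slc25a1* had the smallest p (-0.58, adjusted p = 0.254). High-LET HCC against spontaneous HCC had 9 carriers at that unadjusted level. The percentages of all genes here are of adjusted calls, and shares of all genes at the unadjusted level were not computed. The interaction test, which asks whether the HCC effect differs between radiation types and was called at an adjusted p under 0.2, gave 0 carriers (0.956% of all genes) and 3 at an unadjusted p under 0.05, so the differences in effect between the kinds of HCC described above did not pass a test of the difference itself.

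Genes that work with the carriers were described from lists. Of 18 matched enzymes that use carried substrates, 2 were higher and 6 lower in high-LET HCC, 0 and 3 in low-LET HCC, and 0 and 5 in spontaneous HCC. Of all genes, 5.57% were higher and 6.08% lower in the high-LET comparison, 4.91% and 4.95% in the low-LET, and 7.28% and 6.83% in the spontaneous. The median log2 fold changes of these enzymes were -0.23, -0.15 and -0.24 in that order. *Cs*, citrate synthase, was lower in all 3 (-0.82, -1.26 and -1.12). *Cpt2*, which acts on the acylcarnitines that *Slc25a20* brings in, had -0.92 (called), -0.51 (not called) and -1.21 (called). *Otc*, which makes the citrulline that *Slc25a15* exports, was lower in spontaneous HCC (-0.96) and had -0.41 and -0.38, not called, in high-LET and low-LET HCC. *Mdh1*, of the malate-aspartate shuttle, was lower in low-LET HCC (-1.07) and spontaneous HCC (-1.22) and had -0.33, not called, in high-LET HCC.

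Of 9 matched genes that import carriers into the inner membrane, *Timm9* was lower in all 3 (-0.46, -0.56 and -0.55) and *Timm8a1* was higher in spontaneous HCC (0.57). Of all genes, 2.55% were lower in all 3 and 7.28% were higher in spontaneous HCC. Of 7 matched genes of other mitochondrial membrane transport, 0 were called in any of the 3 comparisons. The 11 genes chosen to stand for mitochondrial content had 2, 3 and 4 members lower (beside the same 6.08%, 4.95% and 6.83% of all genes) and 0 higher, with medians of -0.21, -0.26 and -0.39, among them *Cs* in all 3 and *Atp5a1* (-1.21), *Uqcrc2* (-0.43) and *Etfa* (-0.43) in spontaneous HCC. Their summed signal was 44670 to 67520 in high-LET HCC, 45110 to 54320 in low-LET HCC and 50920 to 53390 in spontaneous HCC, against 63170 to 70810 in high-LET livers, 58380 to 66960 in low-LET livers and 63920 to 73500 in sham livers. The low-LET and spontaneous HCC did not overlap their livers in this sum, and its part in the lower carrier signals was not tested.

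Markers of other cells also moved. In high-LET HCC, 3 of 5 endothelial, 2 of 5 macrophage and 3 of 5 neutrophil markers were higher, beside 5.57% of all genes. The summed neutrophil signal was uneven there, from 600.6 to 32630 with a median of 1100. High-LET livers had 366.6 to 797.4. In other lists, of 2 markers of dividing cells 1 was higher in high-LET HCC and 1 in low-LET HCC. Of 5 stellate cell markers 1 was higher in low-LET HCC and 1 higher and 1 lower in spontaneous HCC. Of the 5 endothelial markers 1 was lower in spontaneous HCC. Of all genes, 4.91% were higher and 4.95% lower in low-LET HCC, and 7.28% and 6.83% in spontaneous HCC. Macrophage and neutrophil markers gave 0 calls in low-LET and spontaneous HCC, where the neutrophil medians were 0.41 and 0.42, beside 0.46 in high-LET HCC. The hepatocyte markers gave 0 calls in high-LET and spontaneous HCC and 1 higher and 1 lower in low-LET HCC, while the 5 carriers named at the start were lower in each. Their part in the carrier results was not tested.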

How the data were processed

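The authors summarized the bead signals of each array with GenomicStudio (Illumina) and deposited 2 tables of the same 34 arrays: linear, non-normalized intensity values, and log2 values that the authors had background-subtracted with MBCB and quantile normalized. The intensity values were used here. They were corrected for background with normexp (offset 50), normalized by quantiles and converted to log2, and rank correlations with the deposited log2 values were at least 0.9999681. Since control probes were not used here, a background limit was set on each array from the mode of its signals and the spread below it (95% one-sided). Probes above the median of the dimmest 25% on at least 3 arrays were tested (45219 of 45281). limma 3.58.1 (R 4.3.3) fitted 1 mean per group over all 34 arrays, with Benjamini-Hochberg adjustment over all probes, after tests on simulated data. The thresholds (adjusted p under 0.1 with fold above 1.3, and 0.2 for the interaction) follow the study's methods, which used a 2-way model. The labels give the groups, doses and strain; replicate numbers only name mice, nothing states which mice shared a cage or litter, and p-values measure the spread between mice. Platform annotation gave 1 gene for 34885 probes, several for 18 and none for 10378. No 2 arrays correlated above 0.9959. Array medians were 93.1 to 127 and 21496 to 26966 probes lay above the limit, and the number of arrays limits the precision. Named carriers were those called in any comparison, with paralogs of 1 substrate class, and up to 4 members of each other list with the smallest adjusted p in spontaneous HCC. Lists came from known substrate classes. The members and lists were chosen with earlier results of these data known. Alternatives changed the background correction, normalization, filter, blocks, weights, samples, thresholds and probe rule, and left out mice in turn, other than the high-LET livers.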

Additional observations from a re-analysis of the deposited data

Results flagged for a closer look

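In groups of 4 to 10 mice, the highest or lowest signal of a carrier was compared with the other mice of its group by Dixon's criterion. The carriers were those called in any comparison and the paralogs of 1 substrate class, some of which lay below background. Of 130 groups over 26 carriers, 7 held a mouse that stood apart, and chance alone gives about 1 in 20. *Slc25a33* stood at 11.64 in high-LET HCC replicate 4 (0.4 Gy), beside 8.83 to 9.83 in the other high-LET HCC. *Slc25a12* stood at 7.70 in sham liver replicate 2, beside 7.23 to 7.40. *Slc25a15* was 11.70 in high-LET non-HCC liver replicate 1, beside 11.06 to 11.39. *Slc25a20* was 11.46 in low-LET non-HCC liver replicate 4 (6 Gy), beside 11.23 to 11.25. *Slc25a24* was low in spontaneous HCC replicate 1, at 6.37 beside 6.48 in each of the others. *Slc25a4* had 6.02 in sham liver replicate 4 and *Slc25a40* had 5.86 in spontaneous HCC replicate 1, neither of them above background in any mouse of that group.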

How the results depend on the processing

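Over the settings tried, the number of carriers called ranged from 3 to 12 in high-LET HCC and 1 to 11 in low-LET HCC against their own livers, from 7 to 9 in spontaneous HCC, from 2 to 10 in high-LET HCC and 1 to 11 in low-LET HCC against sham liver, and from 0 to 5 in high-LET against spontaneous HCC. Scaling to a common median called 3, 1, 2 and 1 carriers in high-LET HCC and low-LET HCC against their own livers and then against sham liver, and 0 between high-LET and spontaneous HCC. BeadChip as a fixed block called 1 in low-LET HCC against its livers, 3 and 2 in high-LET and low-LET HCC against sham liver, and 0 between high-LET and spontaneous HCC. Array weights called 4 in high-LET HCC against its livers, 5 against spontaneous HCC, 2 against low-LET HCC, and 8 in the interaction test. Using only the groups compared called 3 in high-LET HCC against sham liver and 0 against spontaneous HCC. Stricter thresholds called 3 and 4 in high-LET and low-LET HCC against their livers and 4 in low-LET HCC against sham liver. The mean of a gene's probes called 4 in high-LET HCC against its livers and 2 against spontaneous HCC, as did the restriction to probes above background (2). Without the 3 high-LET HCC nearest the livers, chosen after seeing the data, 10 were called against sham liver. The shares of all genes called were not computed under these settings or with mice left out, so the counts stand alone. The causes were not tested.

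Leaving out 1 mouse at a time gave 4 to 11 carriers in high-LET HCC and 3 to 8 in low-LET HCC against their livers, 7 to 9 in spontaneous HCC, 4 to 9 and 4 to 7 in high-LET and low-LET HCC against sham liver, 0 to 3 in high-LET against spontaneous HCC, 0 to 1 in the interaction test and 0 in the 4 other comparisons. The 10 high-LET livers were not left out in turn, so these ranges do not cover them. The high-LET count was 5 and 4 without HCC replicates 3 and 4. The low-LET count was 4 and 3 without HCC replicates 2 and 3 and 5, 5 and 4 without low-LET liver replicates 1, 2 and 3, and 4 against sham liver without HCC replicate 3. Against spontaneous HCC it was 2, 0, 0 and 2 without spontaneous replicates 1 to 4 and 3 without high-LET replicate 3 or 4, and the interaction gave 1 without high-LET replicate 1.

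Of 483 values of called carriers under other settings, 93 lost the call, as did 61 of 353 when mice were left out, and 0 changed sign. Uncalled values did change sign: in low-LET HCC *Slc25a3* was 0.24 with array weights and -0.32 to 0.30 with 1 mouse left out, positive without HCC replicate 3 or low-LET liver replicate 3 (0.030), *Slc25a20* was -0.13 to 0.27, negative without HCC replicate 1 (-0.063) or 2, and *Slc25a47* in spontaneous HCC was -0.044 to 0.35, negative without replicate 2. For the 14 other carriers followed, none of them called in the comparisons with liver, 45 of 848 values changed sign, with sizes up to 0.27, and 3 became called (*Slc25a28* with array weights in low-LET HCC, -0.43, and without spontaneous HCC replicate 4, -0.43, and *Slc25a39* without high-LET HCC replicate 1, -0.42). *Slc25a12* was 0.0010 in high-LET HCC with median scaling, and in spontaneous HCC -0.087 with the fixed block and -0.014 with the mean of probes. *Slc25a22* was 0.015 in low-LET HCC with the fixed block. Under scaling to a common median, the median log2 fold change of all genes lay between -0.011 and -0.0015 in the comparisons of HCC with liver. No paired analysis was possible because replicate numbers only name mice. Groups of 3 or 4 mice limit the low-LET and spontaneous comparisons, and signals near background limit what 11 carriers can show.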

Other observations

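*Alas1* and *Fech*, which open and close heme synthesis, were both higher in high-LET HCC than in high-LET livers (1.62, SE 0.40, limma adjusted p = 0.00572, and 0.66, SE 0.18, adjusted p = 0.0113). In low-LET HCC *Alas1* had 1.56 (adjusted p = 0.160) and *Fech* 0.05, and in spontaneous HCC they had 0.92 and -0.14, none of them called. These 2 genes were picked from the list of enzymes after their values were seen.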
